A study of Mus musculus with 13 samples.

Results

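The hair keratins and the keratin-associated proteins are the structural proteins of the hair shaft. They were followed here through the programming of mouse embryonic fibroblasts (MEF) towards thymic epithelial cells (TEC) by the transcription factor Foxn1. Members were all rows of the gene table whose symbol begins with Krtap, and the rows for the hair keratins Krt31 to Krt36, Krt39, Krt40 and Krt81 to Krt86. This gave 68 genes of the 24394 in the table: 15 hair keratins, of which 9 are type I and 6 type II, and 53 Krtap genes. The rule itself names genes and uses no measured value. Of these members, 15 were listed at 0 in every library.

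RNA was sequenced from 13 libraries in 6 groups. All cultures were primary MEF of genotype iFoxn1/+, with an inducible Foxn1 allele, and the 2 MEF control libraries, labelled as untreated and from E13.5, were matched to the columns of cultures that got no Cre. Programmed cells, called iTEC, received the plasmid pPGK-Cre-bpA by Nucleofection, so that Cre was driven by the Pgk promoter, and were collected at day 2 (2 libraries), day 10 (3 libraries) or day 12, when they were sorted into Epcam-negative and Epcam-positive cells (2 libraries each). Epcam is a surface protein of epithelial cells. Fetal TEC of E15.5, labelled as untreated, gave 2 libraries. No label says that replicates came from separate embryos or cultures, so p-values measure the spread between these libraries, which may be technical.

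Hair keratins are intermediate filament proteins. A type I and a type II keratin pair to form the filament, and the small, cysteine- or glycine-rich keratin-associated proteins cross-link the filaments into the hard shaft. Different members are made in the matrix, the cortex and the cuticle of the shaft. Foxn1 acts in both organs: without it, as in the nude mouse, the thymic epithelium does not mature and hair shafts form poorly, with hair keratin genes among those that depend on it in the follicle.

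Libraries held 35805780 to 86465460 counts. Levels are given as CPM, the count of a gene scaled to library size with the TMM factors of edgeR, and 3 counts in a library corresponded to 0.0300 to 0.0776 CPM. In 10 libraries the rank correlation across genes between count and transcript length was 0.293 to 0.342, but it was -0.009 in Epcam-positive replicate 2 and -0.026 and -0.069 in fetal TEC, and the short transcript of Gapdh stood at 128 to 188 CPM in those 3 libraries against 0 to 7.2 CPM in the other 10. Gapdh, which every cell uses, was listed at 0 in MEF replicate 2, day 2 replicate 1 and Epcam-negative replicate 1, so a 0 in these counts does not show that a gene was silent. Both fetal TEC libraries carry this length skew, which cannot be told apart from cell type. Xist was at 688 to 2475 CPM in the MEF and Epcam-negative libraries and at most 10.6 CPM in the rest, and Y-linked genes summed to at most 0.0144 CPM in the former and to at least 41.6 CPM in the latter, so the source embryos differed between groups. Summed markers of fibroblasts (9 genes) were at 57156 and 61619 CPM in MEF and at 2692 to 30246 CPM elsewhere. Summed markers of TEC (9 genes) were at 56.1 and 66.9 CPM in MEF and 3498 to 3791 CPM at day 10. They summed to 23964 and 33890 CPM in fetal TEC. The day 10 sum was mostly Ccl25 (1554 to 1724 CPM), Krt8 (1411 to 1541 CPM) and the induced Foxn1 (422 to 440 CPM). Of these 9 markers 5 were called higher at day 10 than in MEF, where 9.42% of all tested genes were. Pax1 and Pax9 were called lower, where 6.58% of all were. Prss16 was at 1.5 to 1.96 CPM at day 10, against 11556 and 14180 CPM in fetal TEC. Macrophage markers (6 genes) summed to 2383 and 2411 CPM in MEF and at most 3.39 CPM at day 2 and day 10. They summed to 397 and 493 CPM in fetal TEC and to 160 CPM in Epcam-positive replicate 1. Thymocyte markers (6 genes) summed to 1038 and 380 CPM in fetal TEC, 37.3 and 81.8 CPM in MEF and at most 2.26 CPM at day 10. In MEF the sum was nearly all Ptprc (36.2 and 80.8 CPM), with Cd3e, Cd8a and Rag1 at 0. The part of these differences in the results was not tested, and in bulk RNA fewer cells of a type cannot be told apart from less RNA per cell.

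Foxn1 itself was at 18.3 and 13 CPM in the MEF libraries, at 382 and 299 CPM at day 2, and at 440, 431 and 422 CPM at day 10. It stood at 468 and 391 CPM in Epcam-negative cells, 326 and 292 CPM in Epcam-positive cells, and 362 and 362 CPM in fetal TEC. Every programmed or fetal library was above both MEF libraries. By edgeR's quasi-likelihood test with Benjamini-Hochberg adjustment over 17004 genes, Foxn1 rose from MEF to day 2 by a log2 change of 4.44 ± 0.31 (SE, adjusted p = 0.000131), whereas the change from day 2 to day 10 was 0.34 ± 0.25 (adjusted p = 0.463).

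The hair keratins had no counted read in MEF. None of the 15 had one in either MEF library, and among the 53 Krtap genes only Krtap1-5 did, at 0.0415 and 0.0201 CPM. No member reached 1 CPM in MEF, against 2 members in each day 2 library, 16, 16 and 17 at day 10, 12 and 11 in Epcam-negative cells, 17 and 18 in Epcam-positive cells, and 7 and 10 in fetal TEC. Over all libraries 25 of the 68 members reached 1 CPM at least in a single library: 13 of the 15 hair keratins and 12 of the 53 Krtap genes. With every member but Krtap1-5 at 0 in MEF, a fall from MEF could not be called, and the filter on low counts was passed only through groups where a member was higher. The counts of members called against MEF are therefore descriptions, and nothing is read from them against the share of all genes called.

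**Figure D1:**
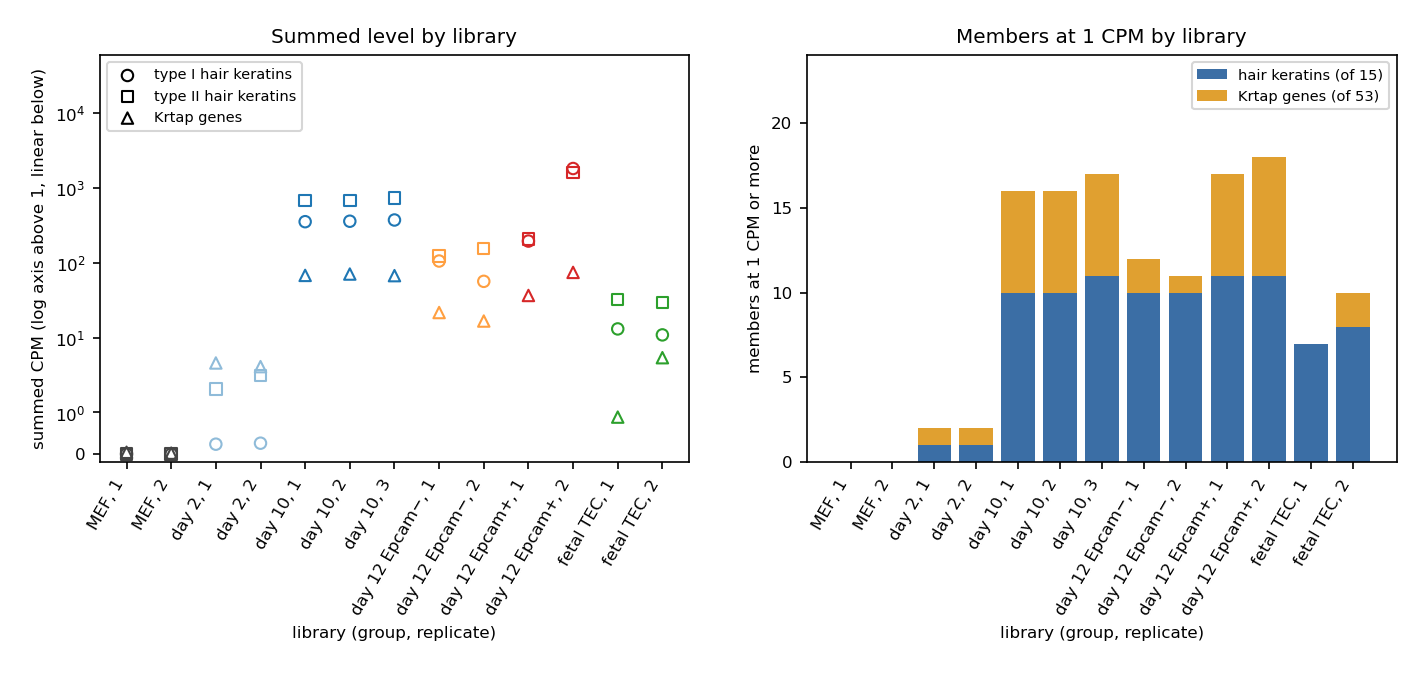
Left, summed CPM of the type I hair keratins, type II hair keratins and Krtap genes in each of the 13 libraries (log axis above 1 CPM, linear below), coloured by group. Right, the number of hair keratins and Krtap genes at 1 CPM or more in each library. The 3 day 10 libraries lie close together, and Epcam-positive replicate 2 lies far above replicate 1 for the keratins.

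At day 2, with Foxn1 already at 299 and 382 CPM, the hair keratins had barely appeared. They summed to 2.3 and 3.39 CPM, and the Krtap genes to 4.59 and 4.1 CPM. Krt83, a type II cortex keratin, was at 1.32 and 1.79 CPM and Krt85, a type II keratin of the matrix and early cortex, at 0.598 and 0.974 CPM. Both were at 0 in the 2 MEF libraries, so the groups did not overlap. These 2 were the members that rose from MEF to day 2 (Krt83 at least 63.5-fold higher, adjusted p = 0.0126; Krt85 at least 32-fold higher, adjusted p = 0.0067, edgeR), where 2.87% of all tested genes were called higher and 2.65% lower. Such lower bounds set the group at 0 to 3 counts over its libraries and cover counting error only. Krtap1-5 was the most counted Krtap gene at day 2, at 3.66 and 3.52 CPM, and its change from MEF of 6.72 ± 1.91 on the log2 scale did not pass the test (adjusted p = 0.087). Krt83 lost its call without MEF replicate 1, MEF replicate 2 or day 2 replicate 2 (adjusted p up to 0.0853) and Krt85 without MEF replicate 1 (adjusted p = 0.056), and the count of called members was 6 when either Epcam-positive library was left out and 7 without the 3 length-skewed libraries.

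By day 10 the hair keratins had become abundant. Their sum reached 1045, 1039 and 1112 CPM, of which the type I keratins gave 356, 361 and 375 CPM and the type II keratins 689, 678 and 737 CPM. From MEF to day 10, 20 of the 68 members rose, 11 of them hair keratins and 9 Krtap genes, where 9.42% of all tested genes were called higher and 6.58% lower. The filter on low counts left 24 members to test, 13 hair keratins and 11 Krtap genes. From day 2 to day 10, 14 members rose (11 hair keratins and 3 Krtap genes), where 8.24% of all tested genes were called higher and 4.41% lower. Krt31, Krt33b, Krt36 and Krtap4-2 among them were at 0 in both day 2 libraries and could not be called lower. This count is therefore a description too.

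**Figure D2:**
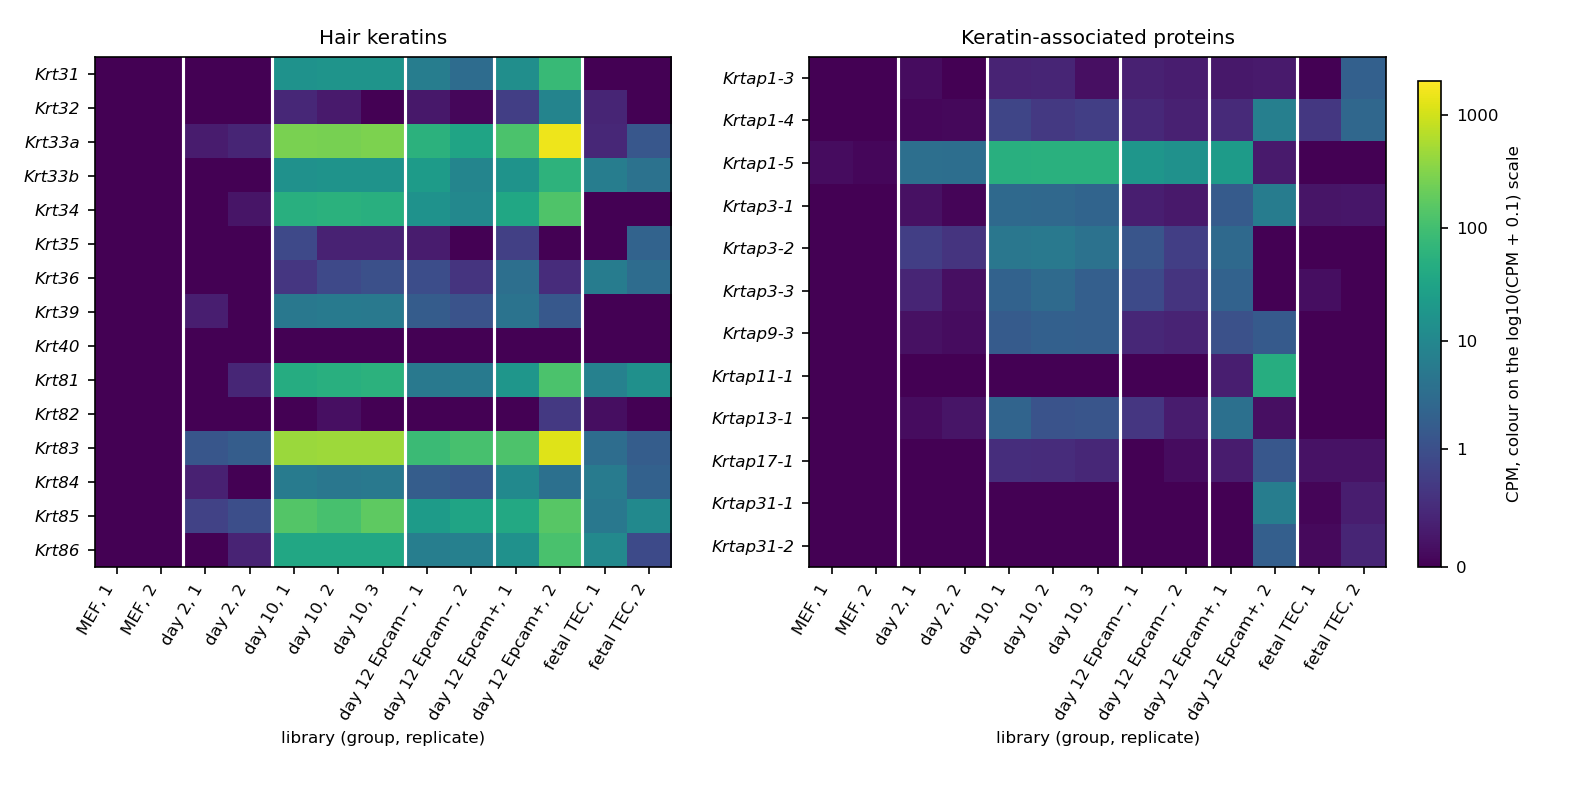
CPM of the 15 hair keratins (left) and of the 12 Krtap genes that reached 1 CPM in any library (right), as colour on the log10(CPM + 0.1) scale, with 1 column per library and white lines between groups. MEF columns are dark throughout, day 10 columns are alike, and Krtap1-5 is bright at day 10 but dark in Epcam-positive replicate 2 and fetal TEC.

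Krt83 was the leading hair keratin at day 10. It was at 458, 470 and 461 CPM, a mean of 463 ± 6.06 CPM (SD, n = 3), against 0 in both MEF libraries, which is at least 18870-fold higher (adjusted p = 0.000314, edgeR). From day 2 it rose by 8.21 ± 1.08 on the log2 scale (SE, adjusted p = 0.00184, edgeR). All 3 day 10 libraries lay far above the 2 day 2 libraries.

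Krt33a, a type I keratin of the cortex, followed at 268, 266 and 285 CPM (273 ± 10.1, SD, n = 3), at least 11120-fold above MEF (adjusted p = 0.00138, edgeR). At day 2 it was at 0.109 and 0.182 CPM, and its log2 change to day 10 was 10.83 ± 1.59 (adjusted p = 0.0031, edgeR). That call was lost without day 2 replicate 1 (adjusted p = 0.0544). Together Krt33a and Krt83 made up 69.5%, 70.9% and 67.1% of the hair keratin CPM at day 10.

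Krt85 was at 141, 114 and 174 CPM at day 10 (143 ± 30.4, SD, n = 3), at least 5820-fold above MEF (adjusted p = 0.000142, edgeR). The type II cortex keratins Krt81 and Krt86 had values of 46.6, 52.4 and 57.6 CPM and of 37.3, 37.3 and 38.5 CPM, at least 2127-fold and 1536-fold higher than MEF. The type I cortex keratins Krt34, at 51.2, 54.9 and 51.3 CPM, Krt31, at 15.2, 16.5 and 16.9 CPM, and Krt33b, at 15, 15.9 and 15.9 CPM, rose at least 2138-fold, 661-fold and 636-fold. For these cortex keratins no day 10 library came near the MEF or day 2 values, the highest of which was 0.195 CPM for Krt81 in day 2 replicate 2. Krt31 and Krt33b had no read at day 2.

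The remaining hair keratins stayed low. Krt39, a type I keratin, was at 5.2, 5.79 and 5.33 CPM and Krt84, a type II keratin known from the filiform papillae of the tongue, at 6.16, 4.94 and 5.43 CPM. Both rose from MEF, at least 222-fold and 225-fold. Krt36, another type I keratin, reached 0.372, 0.794 and 1.01 CPM and was called higher than MEF (at least 29.5-fold, adjusted p = 0.027, edgeR), a call lost without any of the MEF or day 10 libraries (adjusted p up to 0.131). Krt35, the type I keratin made earliest in the hair matrix, was at 0.789, 0.154 and 0.155 CPM. The cuticle keratins Krt32 (0.201, 0.102 and 0 CPM), Krt82 (0, 0.0512 and 0 CPM) and Krt40 (0 in all libraries) were at or near 0.

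Per kilobase of transcript, the order of day 10 means among the called hair keratins and Krtap1-5 was Krt83 (264 CPM per kb), Krt33a (162), Krtap1-5 (51.3), Krt34 (32.6), Krt81 (28.3), Krt86 (19.2), Krt31 (10.3), Krt33b (9.88), Krt39 (3.33), Krt84 (2.14) and Krt36 (0.434). Krt31 and Krt33b were neighbours whose 3 values overlapped (9.64 to 10.7 against 9.52 to 10.1 CPM per kb). Without Krt85, for which no transcript length was used here, the type I keratins summed to 0.685 to 0.715 of the type II sum per kilobase at day 10. Close sequence among members limits what single genes mean: Krt34 and Krt33a were 95.1% identical over 1123 aligned bases, Krt83 and Krt81 95.1% over 1383 bases, and Krt31 and Krt33a 93.5% over 1243 bases. How the authors' counting treated reads that match several genes was not given in the sources used here.

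Of the 20 calls against MEF, 9 held in every fit with a library left out (Krt31, Krt33a, Krt33b, Krt34, Krt81, Krt83, Krt85, Krtap3-1 and Krtap9-3). The count of called members was 11 without MEF replicate 1, 9 without MEF replicate 2, and 13 without day 10 replicate 2 or without day 10 replicate 3. Krt39 lost its call without either MEF library (adjusted p up to 0.0631), and Krt84 and Krt86 theirs without MEF replicate 2 (adjusted p = 0.0504 and 0.0548). Bounds against MEF are 2.45 times lower without MEF replicate 1 and 1.69 times lower without MEF replicate 2. From day 2 to day 10, Krt31, Krt33b, Krt34, Krt81, Krt83 and Krt85 held in every such fit, and the count was 9 without day 2 replicate 1, 7 without day 2 replicate 2, 22 without Epcam-positive replicate 1 and 23 without the 3 length-skewed libraries.

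**Figure D3:**
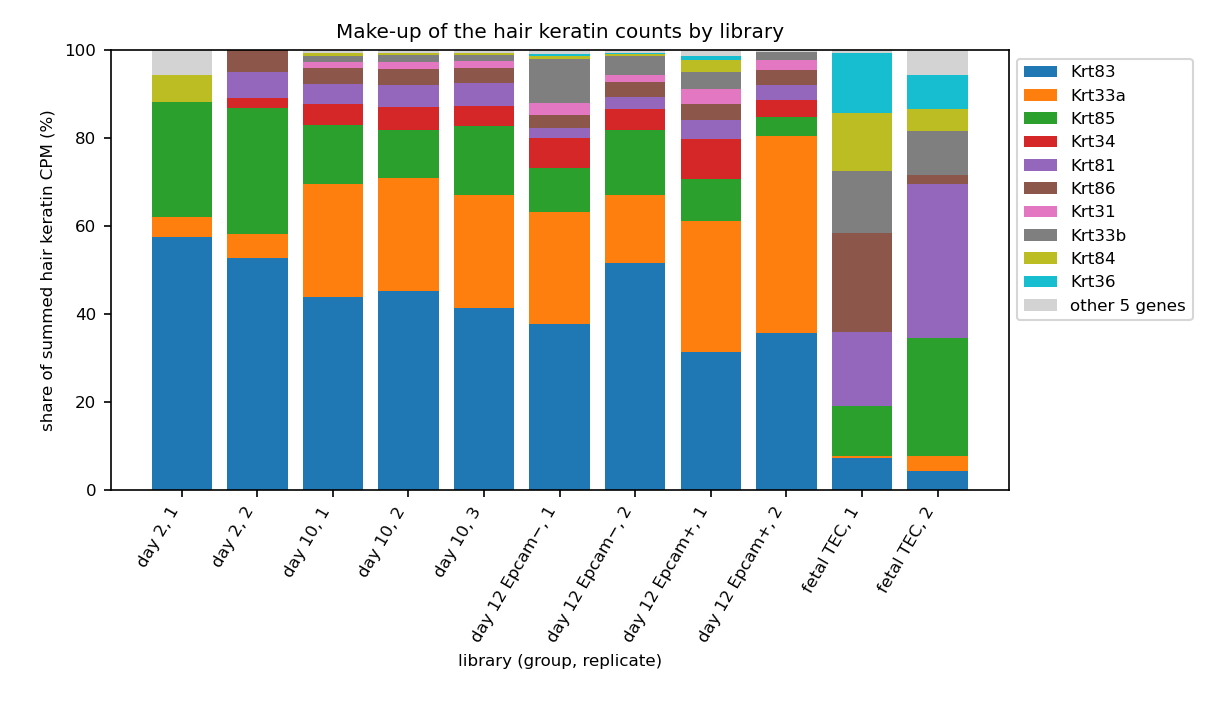
Share of each hair keratin in the summed hair keratin CPM (percent, stacked bars) in the 11 libraries outside MEF, where the sum was 0. Krt83 and Krt33a fill 58.2% to 80.5% of every programmed library and 7.72% and 7.7% of the fetal TEC libraries, where Krt81, Krt85, Krt86, Krt33b, Krt84 and Krt36 hold most of the rest. Shares are of counts and are not divided by transcript length.

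Among the Krtap genes, day 10 was dominated by Krtap1-5, a high-sulfur protein of the cortex. It was at 51.9, 54.6 and 53.7 CPM (53.4 ± 1.38, SD, n = 3), against 0.0415 and 0.0201 CPM in MEF, and gave 76.2% to 79.5% of all Krtap CPM. The groups did not overlap, and the log2 change was 10.61 ± 2.13 (SE, adjusted p = 0.0114, edgeR). The call was lost without either MEF library (adjusted p up to 0.118). Its change from day 2 to day 10, of 3.89 ± 1.48, did not pass the test (adjusted p = 0.136), although all 3 day 10 libraries lay above both day 2 libraries.

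The Krtap3 genes came next. Krtap3-2 was at 4.97, 5.41 and 4.06 CPM at day 10, Krtap3-1 at 2.82, 2.79 and 2.35 CPM and Krtap3-3 at 2.14, 2.97 and 1.94 CPM, with all 3 at 0 in MEF. They were at least 196-fold, 108-fold and 95.7-fold higher than MEF (adjusted p = 0.0329, 0.00179 and 0.0415, edgeR). Krtap3-2 and Krtap3-3 are 98.7% identical over 373 bases, so their split is uncertain. Krtap9-3 was at 1.59, 1.97 and 1.89 CPM (at least 74.1-fold, adjusted p = 0.0017) and Krtap13-1 at 2.37, 1.15 and 1.24 CPM (at least 64.7-fold, adjusted p = 0.038). Krtap1-4, Krtap2-4 and Krtap4-2 also rose, to means of 0.541, 0.393 and 0.307 CPM. The calls of Krtap3-2, Krtap3-3, Krtap13-1, Krtap1-4 and Krtap2-4 were each lost in 9 of the 13 fits with a library left out, those without any of the MEF, day 2, day 10 or Epcam-negative libraries, and that of Krtap4-2 in 6 (MEF, Epcam-negative, and day 10 replicates 2 and 3).

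Most of the Krtap genes that reached 1 CPM lie on chromosome 11. The 22 Krtap genes on chromosome 11 lie at chr11:99550130-99993994 (mm10), between the type I keratins of chr11:99514114-100105626, and 10 of them reached 1 CPM in some library. Of the 23 Krtap genes at chr16:88610705-89571183, 2 did so (Krtap11-1 and Krtap13-1), and none of the 5 at chr7:142174535-142304594 or the 3 at chr10:77720599-77837252. At day 10 the chromosome 11 genes summed to 65.3, 69.4 and 66.1 CPM and the chromosome 16 genes to 2.76, 1.43 and 1.37 CPM. All 53 Krtap genes have a single exon, with transcripts of 304 to 1888 bases, while the 14 hair keratins with an annotation have 5 to 9 exons. The 14 Krtap genes listed at 0 in all 13 libraries were 3 of the 5 on chromosome 7, 3 of the 22 on chromosome 11 and 8 of the 23 on chromosome 16.

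Promoter sequence is shown for members that rose together and lie close to each other on chromosome 11, to let their short shared elements be seen. RefSeq (GRCm38.p6) gave a promoter for 57 of the 68 members. Each line below is the 250 bases before the start of the gene, 5′ to 3′ on the gene's own strand, with capitals for 4 motifs on either strand: ACGC, the core that Foxn1 binds; TATAAA, the TATA box, in capitals only on the gene's strand; CTTTGA, the core bound by Lef1 and its relatives; and TTTATG, a core bound by posterior homeobox proteins such as Hoxc13, chosen after the sequences were seen. Krt31, Krt33b and Krt34 are cortex keratins high at day 10, Krt36 is a neighbour that stayed at or below 1.01 CPM at day 10, and Krtap1-5, Krtap3-1 and Krtap9-3 are the Krtap genes above.
Krt31: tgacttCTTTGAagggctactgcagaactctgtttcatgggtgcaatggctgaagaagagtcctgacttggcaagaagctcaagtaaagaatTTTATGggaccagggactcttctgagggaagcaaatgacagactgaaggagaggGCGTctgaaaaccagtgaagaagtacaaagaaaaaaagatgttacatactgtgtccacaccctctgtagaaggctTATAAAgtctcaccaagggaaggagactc
Krt33b: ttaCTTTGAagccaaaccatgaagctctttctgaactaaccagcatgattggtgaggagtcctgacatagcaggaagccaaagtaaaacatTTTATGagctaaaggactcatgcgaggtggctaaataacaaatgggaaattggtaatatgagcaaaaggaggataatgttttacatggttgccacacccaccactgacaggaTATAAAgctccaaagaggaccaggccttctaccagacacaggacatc
Krt34: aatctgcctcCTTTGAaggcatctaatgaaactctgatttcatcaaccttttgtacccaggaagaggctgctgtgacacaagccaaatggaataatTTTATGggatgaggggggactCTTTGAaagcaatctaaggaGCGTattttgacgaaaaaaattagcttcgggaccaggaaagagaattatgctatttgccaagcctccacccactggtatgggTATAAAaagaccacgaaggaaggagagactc
Krt36: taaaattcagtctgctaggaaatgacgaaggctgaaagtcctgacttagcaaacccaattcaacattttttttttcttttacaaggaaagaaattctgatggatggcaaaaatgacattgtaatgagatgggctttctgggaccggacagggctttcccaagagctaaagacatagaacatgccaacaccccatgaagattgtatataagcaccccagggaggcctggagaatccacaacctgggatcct
Krtap1-5: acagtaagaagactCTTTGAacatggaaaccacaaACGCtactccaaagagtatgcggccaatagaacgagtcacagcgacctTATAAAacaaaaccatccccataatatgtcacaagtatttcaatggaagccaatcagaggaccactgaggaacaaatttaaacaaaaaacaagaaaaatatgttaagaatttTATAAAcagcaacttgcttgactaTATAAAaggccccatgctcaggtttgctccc
Krtap3-1: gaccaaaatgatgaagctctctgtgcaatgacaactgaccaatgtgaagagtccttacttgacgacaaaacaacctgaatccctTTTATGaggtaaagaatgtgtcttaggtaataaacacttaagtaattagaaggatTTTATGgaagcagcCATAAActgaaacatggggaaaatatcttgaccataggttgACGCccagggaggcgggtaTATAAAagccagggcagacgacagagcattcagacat
Krtap9-3: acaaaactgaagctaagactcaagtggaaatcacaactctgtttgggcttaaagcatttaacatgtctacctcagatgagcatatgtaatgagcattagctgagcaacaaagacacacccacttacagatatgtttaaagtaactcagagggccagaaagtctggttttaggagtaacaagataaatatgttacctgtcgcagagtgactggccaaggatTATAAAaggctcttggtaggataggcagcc

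The windows are chr11:100050552-100050801 for Krt31, chr11:100029869-100030118 for Krt33b, chr11:100041555-100041804 for Krt34, chr11:100105627-100105876 for Krt36, chr11:99581017-99581266 for Krtap1-5, chr11:99566631-99566880 for Krtap3-1 and chr11:99598107-99598356 for Krtap9-3, all on the minus strand. Krt31, Krt33b and Krt34 carry CTTTGA near the far end, TTTATG further in and TATAAA close to the start, whereas Krt36 holds none of the 4 motifs. Krt32, a neighbour at 0.201, 0.102 and 0 CPM at day 10 and not called, holds the same motifs as Krt33b. Nothing is therefore read from the contrast with Krt36, which was itself called higher at day 10. None of the 4 motifs contains another. Searched on both strands, TATAAA was found in 44 of the 57 member promoters (77.2%) and in 12.4% of all 32851 promoter windows, and on the gene's strand it began at bases -40 to -25 in 32 of the 57 (56.1%) against 1.9% of all windows. TTTATG was found in 23 members (40.4%), among them 8 of 9 hair keratins, against 10.8% of all windows. It was chosen after member sequences were seen, so nothing is read from this difference. Krt32, Krt40 and Krt82, not called or not tested at day 10, were among the 8. CTTTGA was found in 17 members (29.8%) against 13.8% of all windows. The Foxn1 core ACGC was found in 15 members (26.3%) and in 49.8% of all windows, and in 6 of the 15 members with a promoter that were called higher at day 10 (40.0%) against 9 of the other 42 (21.4%). The Lef1 core was in 7 of the same 15 called members and in 10 of the other 42. The homeobox core was in 8 and 15 of them, and the TATA box in 12 and 32. The called members thus held the larger share for every motif, not only for the Foxn1 core. The 42 include members that were not tested. These matches describe letters in a window, not sites in use.

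At day 12 the hair keratins of Epcam-negative cells were below those of day 10. They summed to 230 and 212 CPM, and the Krtap genes to 21.7 and 16.7 CPM. Krt83 was at 86.5 and 110 CPM, Krt33a at 58.8 and 32.6 CPM, Krt85 at 22.8 and 31.8 CPM, and Krt81 at 5.46 and 5.7 CPM. For these 4 genes both libraries lay below all 3 day 10 libraries. Day, sort and source embryos, which differed by Xist and Y-linked genes, changed together, and this difference was not tested. Krt33b did not follow, at 22.7 and 9.11 CPM against 15 to 15.9 CPM at day 10. Krtap1-5 was at 18.2 and 14.8 CPM and gave 83.7% and 88.8% of the Krtap CPM.

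Against MEF, 14 members rose in Epcam-negative cells, 11 hair keratins and 3 Krtap genes (7.37% of all tested genes were called higher and 4.53% lower). Krt83 was at least 3995-fold higher (adjusted p = 0.000675), Krt33a at least 1863-fold (adjusted p = 0.00352) and Krt85 at least 1110-fold (adjusted p = 0.000331, edgeR). The 3 Krtap genes were Krtap1-5, Krtap3-1 and Krtap9-3, the last 2 at means of only 0.115 and 0.186 CPM. Krt31, Krt33a, Krt33b, Krt34, Krt83 and Krt85 held in every fit with a library left out. The other 8 calls were each lost in at least 2 of these fits, Krtap1-5 without either MEF or either Epcam-negative library (adjusted p up to 0.193). The count was 6 without either MEF library and 7 without either Epcam-negative library. These comparisons and those of day 2 and day 10 share the MEF libraries.

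The Epcam-positive pair held both a modest and the highest level of hair keratins in the series. Replicate 1 summed to 406 CPM and replicate 2 to 3450 CPM. Krt33a was at 121 and 1552 CPM, Krt83 at 127 and 1227 CPM, Krt85 at 38.6 and 151 CPM, and Krt34 at 36.7 and 131 CPM. Each of these was above both Epcam-negative libraries in both replicates, but the replicates were far apart. Epcam itself was at 4.8 CPM in replicate 1 and 30.6 CPM in replicate 2, against 0.56 and 0.29 CPM in Epcam-negative cells. At day 10 it was at 5.03 to 5.53 CPM, so replicate 1 was not above day 10. Replicate 2 is the library with the length skew. The summed fibroblast markers were 30246 CPM in replicate 1 and 2833 CPM in replicate 2. The summed TEC markers were 3017 and 26882 CPM in replicates 1 and 2. In replicate 2 the TEC sum was nearly all Ccl25 (14953 CPM) and Krt8 (11170 CPM), with Pax1 at 0. The part of these in the difference was not tested. The source embryos also differed between the sorts. Xist was at 1.27 and 0 CPM in Epcam-positive cells and at 923 and 688 CPM in Epcam-negative cells. The sorts therefore do not compare fractions of the same cultures, and the part of this was not tested.

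No member was called between Epcam-positive and Epcam-negative cells by edgeR (12 of 24 had an unadjusted p under 0.05, and the DESeq2 Wald test called 7), where 0.241% of all tested genes were called higher and 0.0176% lower. Krtap3-1 had the lowest adjusted p, at 1.61 and 6.24 CPM against 0.129 and 0.1 CPM, a log2 difference of 5.07 ± 0.99 (adjusted p = 0.0967, edgeR). For Krt33a the difference was 4.19 ± 1.18 (adjusted p = 0.191) and for Krt83 2.79 ± 0.85 (adjusted p = 0.199). With Epcam-positive replicate 1 left out, which leaves replicate 2 assumed to vary like the other groups, 18 members were called, 3 of them lower. With replicate 2 left out 1 member was called.

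The leading Krtap genes of the 2 Epcam-positive libraries were different. Krtap3-1 (1.61 and 6.24 CPM) and Krtap9-3 (1.06 and 1.54 CPM) reached 1 CPM in both. In replicate 1 Krtap1-5 led with 22.9 CPM, 62.3% of the Krtap CPM, followed by Krtap13-1 (3.83 CPM), Krtap3-2 (2.82 CPM) and Krtap3-3 (2.17 CPM). In replicate 2 these were at 0.103, 0.0513, 0 and 0 CPM. There Krtap11-1, a gene of the chromosome 16 cluster, stood at 47.4 CPM against 0.127 CPM in replicate 1 and 0 in every other library. Krtap1-4 (7.03 CPM), Krtap31-1 (6.6 CPM), Krtap31-2 (1.87 CPM) and Krtap17-1 (1.36 CPM) were also above 1 CPM in replicate 2, and so was the cuticle keratin Krt32, at 8.65 CPM. Of these, Krt32, Krtap11-1, Krtap17-1, Krtap31-1 and Krtap31-2 reached 1 CPM in no other library of the series. Krtap31-1 and Krtap31-2 are 88.5% identical over 978 bases. These values come from a single library and have no replicate check.

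Fetal TEC held a small and differently composed hair keratin set. The hair keratins summed to 45.8 and 40.6 CPM and the Krtap genes to 0.888 and 5.4 CPM, with Foxn1 at 362 CPM in both. Krt81 was at 7.7 and 14.2 CPM, Krt85 at 5.19 and 10.9 CPM, Krt33b at 6.46 and 4.1 CPM, Krt36 at 6.29 and 3.18 CPM, and Krt84 at 6.11 and 2.03 CPM. Krt86 was at 10.3 and 0.811 CPM. Krt83 was at 3.34 and 1.74 CPM and Krt33a at 0.199 and 1.38 CPM, while Krt31, Krt34, Krt39 and Krtap1-5 had no read in either library. Against MEF 11 members rose, 8 hair keratins and 3 Krtap genes, where 31.5% of all tested genes were called higher and 26.3% lower. The hair keratin with the lowest adjusted p was Krt85 (at least 327-fold, adjusted p = 0.000245, edgeR).

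Of those 11, the calls of Krt33b, Krt36, Krt81, Krt83, Krt84, Krt85, Krt86 and Krtap1-4 held in every fit with a library left out. Krtap1-3 rested on fetal TEC replicate 2 (1.95 CPM, against 0 in replicate 1 and in MEF): without that library its log2 change was 0.0, and the call was also lost without either MEF or either Epcam-negative library. Krt33a lost its call without fetal TEC replicate 2 or either MEF library (adjusted p up to 0.0624), and Krtap3-1 without either MEF library (adjusted p up to 0.0616).

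Day 10 cells and fetal TEC were compared directly; for Foxn1 the log2 difference was 0.25 ± 0.25 and did not pass the test (adjusted p = 0.394, edgeR). At day 10, 14 of the 68 members were higher, 6 hair keratins and 8 Krtap genes, where 27.6% of all tested genes were called higher and 31.7% lower. Of these 14, 9 were listed at 0 in both fetal TEC libraries and could only differ in this direction. Krt34 was at least 2005-fold higher at day 10 (adjusted p = 0.000336), Krtap1-5 at least 2040-fold (adjusted p = 0.00269) and Krt31 at least 620-fold (adjusted p = 0.000918, edgeR). Krt83 differed by 7.51 ± 1.04 on the log2 scale (adjusted p = 0.000727), Krt33a by 8.45 ± 1.42 (adjusted p = 0.00173) and Krt85 by 4.15 ± 0.68 (adjusted p = 0.00157, edgeR).

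Krt39 and Krtap9-3 were listed at 0 in fetal TEC, and at least 208-fold and 69.5-fold higher at day 10. For Krt36 both fetal TEC libraries (6.29 and 3.18 CPM) lay above all 3 day 10 libraries (0.372 to 1.01 CPM), but the difference of -2.71 ± 1.1 on the log2 scale did not pass the test (adjusted p = 0.0641). Krt84 (2.03 and 6.11 against 4.94 to 6.16 CPM) overlapped between the groups. The calls of Krt31, Krt33a, Krt34, Krt39, Krt83, Krt85, Krtap1-5, Krtap3-1, Krtap4-2 and Krtap9-3 held in every fit with a library left out; Krtap13-1, Krtap2-4 and Krtap3-3 were lost without either fetal TEC library, Krtap3-3 also without any day 10 library, and Krtap3-2 without fetal TEC replicate 1. The length skew falls on fetal TEC alone in this comparison. Epcam-positive replicate 2, a programmed library with the same skew, was also low for some of these Krtap genes. There Krtap1-5 was at 0.103 CPM, Krtap13-1 at 0.0513 CPM, and Krtap2-4, Krtap3-2 and Krtap3-3 at 0. Krtap3-1 (6.24 CPM), Krtap9-3 (1.54 CPM), Krt31 (78.4 CPM) and Krt34 (131 CPM) were not low in that library. The part of the skew in these calls was not tested.

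**Figure D4:**
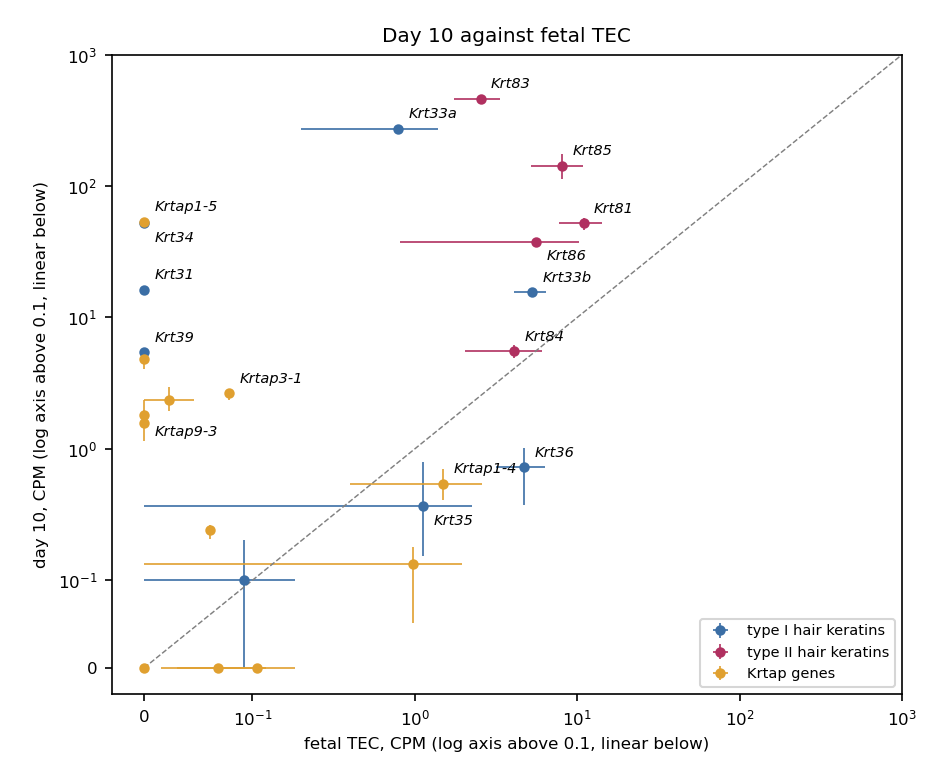
Mean CPM at day 10 (y axis, 3 libraries) against fetal TEC (x axis, 2 libraries) for the members that reached 1 CPM in any library, on axes that are logarithmic above 0.1 CPM and linear below. Bars span the lowest to the highest library, and the dashed line marks equal levels. Krt83, Krt33a and Krt85 lie far above the line, Krt34, Krt31, Krt39 and Krtap1-5 at 0 in fetal TEC, and Krt36 below the line.

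Some known regulators of the hair programme, the induced Foxn1 among them, were higher at day 10, but most were not called. Of 21 such regulators, all tested, 9 were higher than in MEF (Foxn1, Msx2, Lef1, Foxq1, Dlx3, Ovol1, Bmp4, Wnt10b and Edar), 1 was lower (Sox9) and 11 were not called, with a median log2 change of 1.26 against 0.0 for all tested genes, of which 9.42% were called higher and 6.58% lower. Dlx3, a homeobox factor needed for hair formation, was at 0.221 and 0.14 CPM in MEF, 6.04 and 4.52 CPM at day 2 and 47.1, 47.1 and 51 CPM at day 10 (log2 change from MEF 8.03 ± 0.49, adjusted p = 2.4e-05, edgeR). Msx2, a homeobox factor that acts above Foxn1 in the follicle, was at 2.36 and 1.48 CPM in MEF, 3.57 and 3.16 CPM at day 2 and 39.6, 38.4 and 40.9 CPM at day 10 (4.36 ± 0.71, adjusted p = 0.00332, edgeR). Foxq1, which acts in the hair medulla, was at most 0.286 CPM in MEF and at day 2 and at 32.1, 34.2 and 31.3 CPM at day 10. In the programmed cells Msx2 and Foxq1 were thus high at day 10 and still low at day 2, when Foxn1 was already high. Other regulators had moved by day 2. Of the 21, 5 were called higher than in MEF (Foxn1, Lef1, Dlx3, Ovol1 and Wnt10b), 1 lower (Vdr) and 15 were not called. Among all tested genes 2.87% were called higher and 2.65% lower. Wnt10b was at 7.82 and 9.68 CPM at day 2 against 0.332 and 0.341 CPM in MEF. Ovol1 was at 5.91 and 5.92 CPM against 0.263 and 0.321 CPM.

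Hoxc13, a homeobox activator of hair keratin genes, stayed low. It was at 0.332 and 0.481 CPM in MEF, 1.85 and 1.71 CPM at day 2, and 1.42, 2.1 and 1.81 CPM at day 10, and its log2 change from MEF to day 10 of 2.13 ± 0.98 did not pass the test (adjusted p = 0.184, edgeR). In fetal TEC it was at 0 and 0.0811 CPM, below day 10 (difference 5.47 ± 1.23, adjusted p = 0.00504, edgeR). Msx2 was at 0.0459 and 0 CPM in fetal TEC, 1514-fold below day 10 (95% counting interval 518 to 7340). Dlx3 was at 4.92 and 4.44 CPM there. Lef1, the Wnt effector, was higher in fetal TEC (52.5 and 20.9 CPM) than at day 10 (15.4, 13.6 and 14.8 CPM). The difference was -1.33 ± 0.46 (adjusted p = 0.0315, edgeR). Thymocyte markers summed to 1038 and 380 CPM in the same fetal TEC libraries and to 1.81 to 2.26 CPM at day 10. Which cells of fetal TEC gave the Lef1 counts was not tested.

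**Figure D5:**
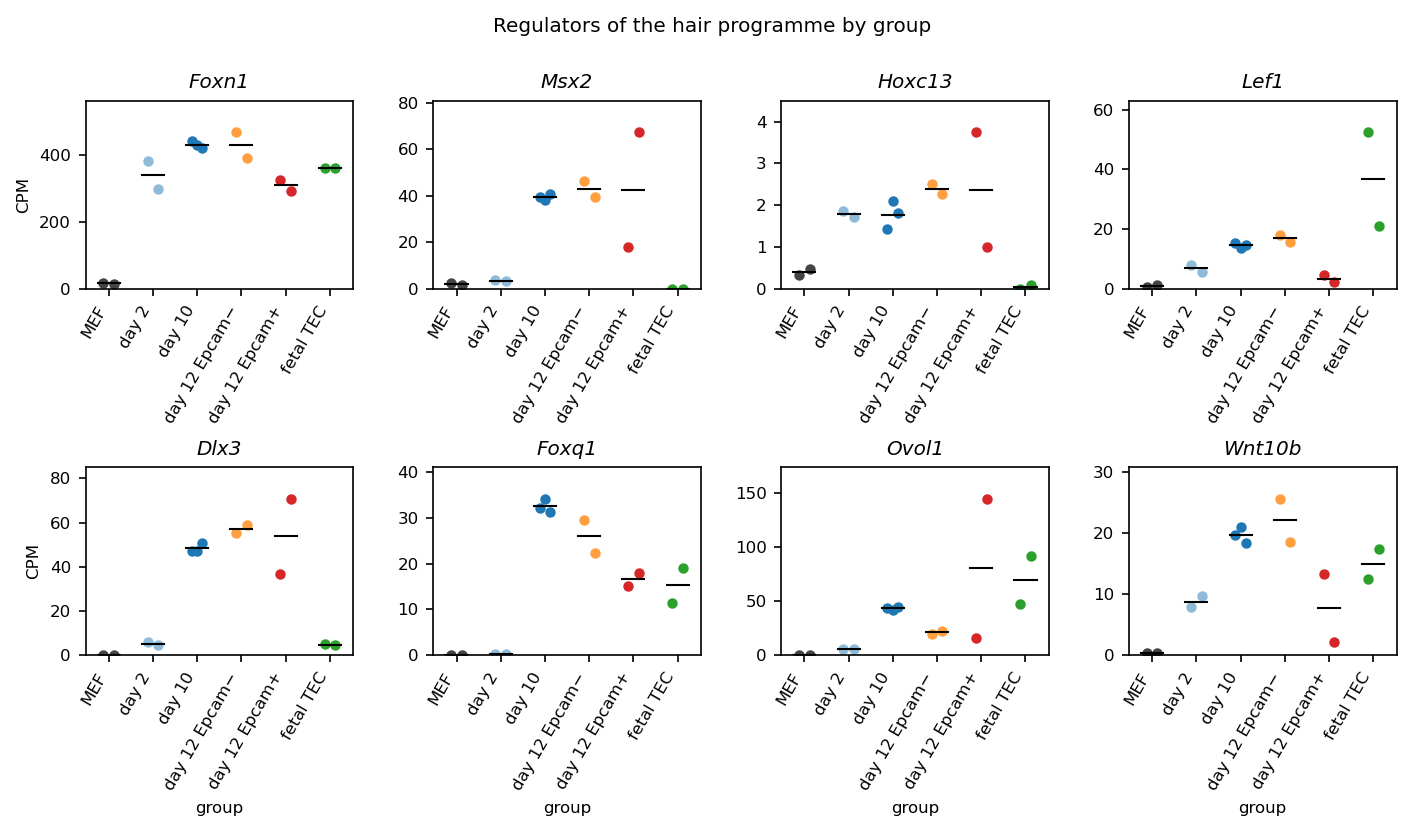
CPM of 8 regulators of the hair programme by group, with 1 point per library and a line at the mean. Foxn1 is high from day 2 on, Msx2, Dlx3 and Foxq1 are high at day 10 and day 12, Hoxc13 stays under 4 CPM, and Msx2 is at or near 0 in fetal TEC.

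Other genes of the hair follicle, not all of them for shaft proteins, moved in part. Of 14 genes, 12 were tested and 6 were higher at day 10 than in MEF (S100a3, Gprc5d, Prr9, Liph, Dsc3 and Dsg3), 1 was lower (Cdh3) and 5 were not called, where 9.42% of all tested genes were called higher and 6.58% lower. S100a3, a cuticle protein that binds calcium, was at 6.53, 9.22 and 7.08 CPM at day 10 against 0 and 0.0802 CPM in MEF (log2 change 7.67 ± 1.24, adjusted p = 0.00318, edgeR). Prr9 and Liph were already high at day 2, at 10.9 and 13.9 CPM and at 117 and 113 CPM, and stood at 8.12 to 9.74 CPM and 48.6 to 51.2 CPM at day 10. Cdh3, the P-cadherin of the hair matrix, was at 139 and 176 CPM in MEF and 5.22 to 6.33 CPM at day 10.

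The keratins of the inner root sheath and companion layer, the sleeves around the shaft, were at or near 0 in the programmed cells, with Krt75 the highest at day 10 (2.07, 0.128 and 0.491 CPM). Of 10 such keratins 7 were tested and none was called at day 10 (1 had an unadjusted p under 0.05), and Krt25, Krt27, Krt71, Krt72 and Krt73 were at 0 in all 11 libraries outside fetal TEC. In fetal TEC the 10 summed to 96.2 and 88.1 CPM, with Krt71 at 41.5 and 20.9 CPM and Krt25 at 9.76 and 13.1 CPM, and all 7 tested were higher than in MEF, where 31.5% of all tested genes were called higher. These 7 were at 0 in both MEF libraries and could not be called lower. Krt25 was at least 541-fold and Krt71 at least 1479-fold lower at day 10 than in fetal TEC (adjusted p = 0.00353 and 0.00248, edgeR).

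Epidermal keratins and genes of the cornified layer were present at low levels at day 10. Of 14 genes, 13 were in the table and tested, and 6 were higher than in MEF (Krt5, Krt14, Krt16, Krt17, Krt6a and Lor), where 9.42% of all tested genes were called higher. Of these 6, all but Lor were at 0 in both MEF libraries, so a fall could not be called for them. All 13 genes together summed to 57 to 59.2 CPM at day 10 against 3505 and 5624 CPM in fetal TEC. Krt17 alone was at 2836 and 4658 CPM in fetal TEC and at 2.77, 1.43 and 1.42 CPM at day 10. Krt6a, a keratin of the companion layer and of activated epidermis, had values closer to each other, at 19.3, 18.8 and 22.2 CPM at day 10 and 26.4 and 23.6 CPM in fetal TEC. Summed markers of cornified keratinocytes (5 genes in the table) were at 13 to 15.6 CPM at day 10 and 22.2 and 48.3 CPM in fetal TEC, and melanocyte markers (6 genes) at most 0.974 CPM at day 10, with 4 or 5 of the 6 at 0.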

How the data were processed

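RNA of 13 libraries in 6 groups was measured. The deposited values are raw counts per gene symbol, not scaled. Per the submitters' processing notes, the tools were StringTie, HISAT2, DESeq2, SAMtools, FastQC and Trimmomatic and the build mm10; how shared reads and strand were treated was not given in the sources used here. Columns headed No_Cre were matched to the MEF controls.

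Counts were fitted in R 4.3.3 with edgeR 4.0.16 (TMM, filterByExpr, 17004 genes, 1 robust quasi-likelihood fit of all libraries, common dispersion 0.296) and adjusted by Benjamini-Hochberg, with calls at an adjusted p under 0.05. CPM use TMM factors; bounds and the floor use 3 counts and cover counting error only. Gene positions and lengths came from GENCODE M21 (67 of 68 members) and promoters from RefSeq GRCm38.p6. Named genes are all hair keratins, the 12 Krtap genes of highest mean CPM over groups, up to 12 called Krtap genes, Foxn1, Hoxc13, Msx2 and up to 6 genes a list by smallest adjusted p from MEF to day 10. Any other gene named was chosen after its values were seen. Members and lists were chosen with earlier results of these data known. Alternatives were other scalings and filters, the DESeq2 1.42.0 Wald test, fits of only the groups compared, without the 3 length-skewed libraries, with a replicate block, and without each library.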

Additional observations from a re-analysis of the deposited data

How the results depend on the processing

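Counts of called members kept within 1.5 times of the main value in all 7 comparisons when the scaling (DESeq2 size factors or library size only) or the filter (none or stricter) was changed. The DESeq2 Wald test called 6 members from MEF to day 2 (main 2) and 7 between the Epcam sorts (main 0). A fit of only the groups compared called 4 from MEF to day 2. Without the 3 length-skewed libraries 7 members were called from MEF to day 2, 23 from day 2 to day 10 and 5 between the Epcam sorts; fetal TEC could then not be compared. With each library left out, the counts ran from 0 to 6 for day 2 against MEF, 9 to 22 for day 10 against MEF, 7 to 22 for day 10 against day 2, 6 to 20 for Epcam-negative cells against MEF and 0 to 18 for Epcam-positive against Epcam-negative cells; the causes were not tested. The Krtap1-3 change in fetal TEC was 0.0 to 9.9 in these fits. A lone library left in a group was assumed to vary like the other groups. At a minimum of 5 CPM, 0 members were counted in each day 2 library, 10 in Epcam-positive replicate 1 and 2 in fetal TEC replicate 2.

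With the replicate block the counts were 13 for day 10 against MEF (main 20), 9 for day 10 against day 2 (main 14) and 8 for Epcam-negative cells against MEF (main 14). No label ties equal numbers to a shared culture, and deviations of same-numbered libraries correlated from -0.395 to 0.243, so the libraries were not treated as paired.

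Over all genes the calls moved more. Higher and lower calls ranged from 182 to 3311 and 86 to 3127 for day 2 against MEF (main 488 and 450), 664 to 4789 and 238 to 4442 for day 10 against MEF (main 1601 and 1119), 356 to 5619 and 208 to 5308 for day 10 against day 2 (main 1401 and 750), 492 to 4655 and 118 to 4016 for Epcam-negative cells against MEF (main 1254 and 771), 0 to 4114 and 0 to 5432 between the Epcam sorts (main 41 and 3), 2612 to 6741 and 2895 to 5876 for fetal TEC against MEF (main 5363 and 4468), and 3459 to 6062 and 3487 to 6859 for day 10 against fetal TEC (main 4692 and 5393). Library size alone moved the higher share of calls from 58.9% to 69.5% at day 10 and from 61.9% to 75.7% in Epcam-negative cells, both against MEF, and from 93.2% to 71.4% between the Epcam sorts, and moved the median of all genes by at most 0.27 on the log2 scale. Depth limits members under about 0.0300 to 0.0776 CPM, the level of 3 counts, and a listed 0 need not mean that a gene was silent.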
